A study of Drosophila melanogaster with 53 samples.

Results

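Transcripts of muscle structure and contraction genes were followed in whole adult Drosophila melanogaster males over 20 days after irradiation. The set was given as 32 gene symbols of sarcomere proteins, their regulators and the calcium pump of muscle, chosen by known function. Earlier results of these data were known when it was chosen. Of the 32 symbols, 26 were found among the 15222 genes of the deposited table through their FlyBase identifiers, and all 26 entered the tests. The other 6 (wupA, Mhc, Unc-89, Strn-Mlck, Zasp52 and tn) matched no identifier through the symbol list used and are not analysed here.

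Males received 10, 1000, 5000, 10000 or 20000 R (roentgen, which measures exposure to ionizing photons) at an age of 2 days after eclosion, or were left as controls at background radiation, per the labels. Whole flies were frozen 2, 10 or 20 days after irradiation and their mRNA was sequenced. Each of the 18 combinations of exposure and day has 3 libraries, except control at day 20 with 2, which gives 53 libraries. No strain is named in the labels, and nothing in them ties the libraries of a group to separate flies or vials, so p-values here reflect how far these samples vary, and that variation may be technical. The title of the study asks about a threshold in the response to radiation.

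In a striated muscle fibre, actin filaments with troponin and tropomyosin slide past myosin filaments, both are held between Z discs, and calcium released from the sarcoplasmic reticulum switches contraction on through troponin C. Flies build different muscles from different members of small gene families. The indirect flight muscles, the bulk of the thorax, use their own actin (Act88F), their own thick filament protein (fln, flightin) and their own troponin C isoforms, while leg, jump and abdominal muscles use others. Adult muscles form in the pupa, and flight muscle goes on maturing in the young fly.

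Values are read counts that the authors divided by a size factor per library, called normalized counts here, and changes are differences of log2(normalized count + 1) between groups with standard errors (SE). The libraries held 15.4 to 46.2 M recovered reads (median 23.3 M). A gene is said to rise or fall only at an adjusted p under 0.05 in limma, adjusted by Benjamini-Hochberg over the 12475 genes tested. The number of genes above 0 ran from 11213 to 14553, and 6 libraries had at most 12229, against at least 12375 in the other 47. These 6 are b of control at day 20, c of 5000 R at day 20, b and c of 10 R at day 2, and c of 10 R at both later days. Including these, 9 libraries stood apart in earlier results of these data by genes detected or by yolk protein or histone transcripts (the further 3, all of day 10, are a of 10 R, c of 10000 R and a of 20000 R), and results that rest on them are given with and without them. Without these 9, library a alone is left of control at day 20 and of 10 R at day 2, and library b alone of 10 R at day 10. The letters a, b and c are the order of a group's columns in the table. The library listed first was the lowest of its group in at least 14 of the 17 groups of 3 for 14 of the 26 muscle genes, against 3.81% of all genes. It was the lowest in every one of the 17 groups for TpnC73F, Tm2, Mlc1, Mlp60A and Mlp84B. The labels name no batch behind this order, and its part in the results was not tested beyond the values given without these libraries and with a term for them in the model.

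The clearest change in the muscle genes was with time. Averaged over the 6 exposures, 21 of the 26 genes fell at day 10 relative to day 2, and 22 of 26 fell at day 20, and none rose on either day. Of all genes tested, 25.4% fell at day 10 and 30.3% at day 20. The median change of the 26 genes was -1.25 at day 10 and -1.32 at day 20 on the log2 scale, beside 0.04 and -0.04 over all genes tested. The muscle genes together made up 2.40 to 3.60% of all normalized counts in the day 2 libraries (median 2.95%), 1.06 to 2.21% at day 10 (median 1.78%) and 0.97 to 2.31% at day 20 (median 1.49%). The highest value of either later day thus lay below the lowest of day 2. Both later days are set against the same day 2 libraries. In whole flies, fewer muscle cells and less of a transcript per cell cannot be told apart.

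Unirradiated flies showed the fall by themselves. In controls 15 of 26 muscle genes fell at day 10 and 15 at day 20, and none rose, while 1.02% of all genes tested fell at day 10 and 4.28% at day 20. The median change in controls was -1.29 at day 10 and -1.53 at day 20, beside -0.04 and -0.22 over all genes. At an unadjusted p under 0.05, the counts in controls were 18 and 20.

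Within each irradiated exposure the count was similar. At day 10, 19 genes fell at 10 R, 14 at 1000 R, 15 at 5000 R, 15 at 10000 R and 16 at 20000 R. The share of all genes that fell at day 10 was 11.4%, 1.15%, 3.75%, 21.8% and 20.2% in the same order of exposures. At day 20 the counts were 19 at 10 R, 16 at 1000 R, 15 at 5000 R, 16 at 10000 R and 18 at 20000 R, beside 13.9%, 3.01%, 5.21%, 22.7% and 22.3% of all genes. The gene TpnC25D rose at 10 R on both days, by 2.36 and 2.55 (22.4% and 23.6% of all genes rose), against a day 2 group in which 2 of 3 libraries were low in it (2.58 and 151 normalized counts beside 791). In all 6 exposures 14 genes fell at day 10 and 15 at day 20. The share of all genes that fell in all 6 was not computed. It cannot exceed the 1.02% that fell in controls at day 10 or the 3.01% that fell at 1000 R at day 20. For the same 14 at day 10, every one of the 18 day 10 libraries lay below every one of the 18 day 2 libraries, which held for 0.906% of all genes. At day 20 there were 12 such genes, against 0.922% of all genes.

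**Figure D1:**
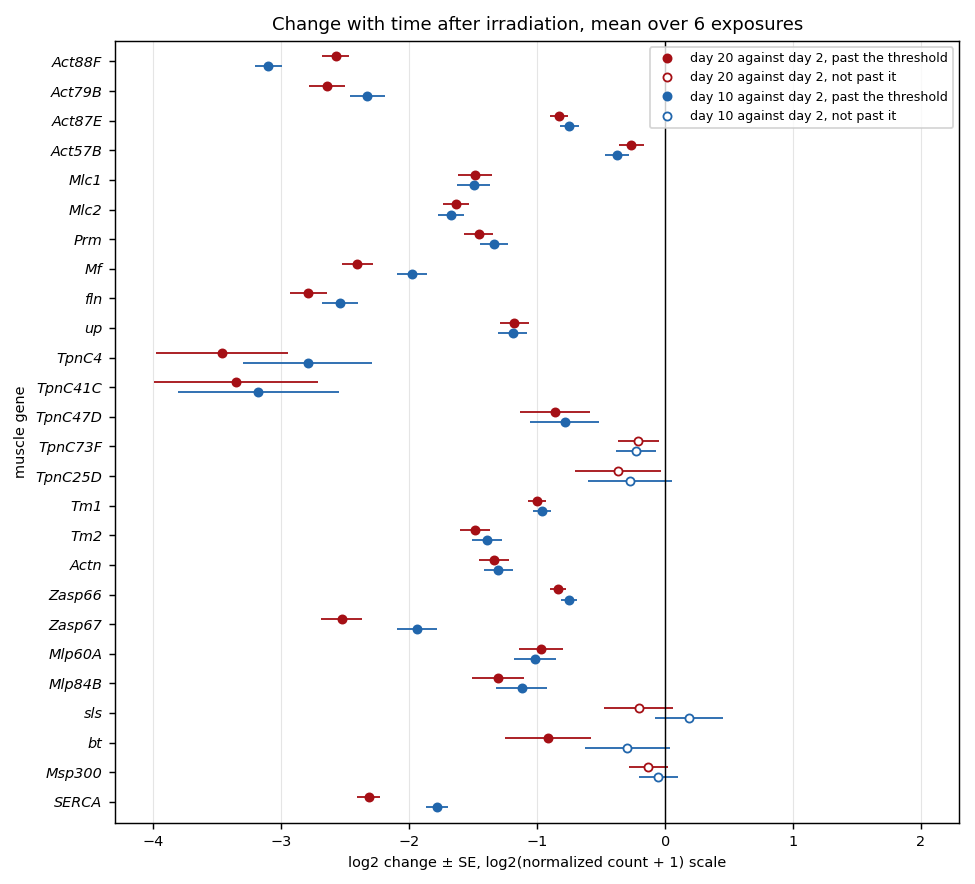
Change of each of the 26 muscle genes at day 20 (red) and day 10 (blue) against day 2, on the log2(normalized count + 1) scale, as the mean over 6 exposures with bars of ±1 SE; filled points passed an adjusted p of 0.05 in limma. Filled points run down to -3.46 for TpnC4 at day 20, while TpnC73F, TpnC25D, sls and Msp300 are open on both days.

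Among the actins, all 4 muscle genes fell on both days, by very different amounts. Act88F, the actin of indirect flight muscle, had 7983, 7309 and 8357 normalized counts in controls at day 2, 708, 812 and 825 at day 10, and 748 and 1047 at day 20. Every control library of the later days lay far below the lowest of day 2. Over all exposures its level ran from 3264 through a median of 7234 to 10239.8 at day 2, from 536 through 775 to 1128 at day 10, and from 640.3 through 1186 to 1924 at day 20. Its mean change was -3.10 ± 0.10 at day 10 and -2.58 ± 0.11 at day 20, which is 8.58 and 5.96 times lower than at day 2 (adjusted p = 3.67e-25 and 1.64e-22, limma). The fall at day 10 was the 9th steepest of the 12475 genes tested, and the fall at day 20 the 652nd.

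Act79B, the actin of the tubular muscles of thorax and legs, had 31365, 35110.2 and 41625 normalized counts in controls at day 2, 6363, 7159 and 7564 at day 10, and 3815 and 6135 at day 20. The day 2 libraries again lay wholly above the later ones. Over exposures the change was -2.33 ± 0.14 at day 10 and -2.64 ± 0.14 at day 20, or 5.02 and 6.24 times lower.

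Act87E and Act57B, which are known from larval muscle and from other adult muscles, fell far less. The median of Act87E was 15141 normalized counts at day 2, 8789 at day 10 and 7890.0 at day 20, a change of -0.75 ± 0.07 and -0.83 ± 0.07. Act57B had medians of 22707, 17327 and 18946 on the 3 days, and its library ranges overlapped: 16639 to 35845 at day 2, 12743.5 to 25442 at day 10 and 13174 to 28890 at day 20. Its change was -0.38 ± 0.10 at day 10 (adjusted p = 0.00143) and -0.27 ± 0.10 at day 20 (adjusted p = 0.022). The day 20 call was lost when control day 20 a was left out, and with edgeR (adjusted p = 0.19).

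The order of the medians of the muscle actins changed between the days. Per kilobase of exon, the day 2 median was 23116 normalized counts for Act79B, 13171 for Act57B, 7612 for Act87E and 4535 for Act88F. At day 2 the libraries of Act79B and Act57B overlapped on this scale (14307 to 36440 and 9651 to 20792), and so did those of Act87E and Act88F (5010 to 9282 and 2046.5 to 6419.9). At day 10 the median was 10050 for Act57B, 4742 for Act79B, 4419 for Act87E and 486 for Act88F, and at day 20 it was 10989.8, 3720, 3967 and 743. On both later days every library of Act88F lay below every library of the other 3, and Act79B and Act87E overlapped. The 4 genes encode nearly identical proteins, and the counting program is not given in the sources used here, so the split of reads among them is uncertain.

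The ratio of the flight muscle actin to each other actin was tested by permuting libraries between days within each exposure (two-sided, 100000 resamples, adjusted over 28 ratio tests of which 11 passed). Act88F fell relative to Act57B by 2.72 at day 10 and by 2.31 at day 20 on the log2 scale, and relative to Act87E by 2.35 and 1.75, all with the smallest p the resamples can give (permutation adjusted p = 5.6e-05). Relative to Act79B it fell by 0.77 at day 10 (permutation adjusted p = 5.6e-05), while at day 20 the difference was 0.07 (permutation adjusted p = 0.689). So the drop of Act88F beyond that of Act79B was seen at day 10 and was not detected at day 20. Cytoplasmic actins give a contrast within the family: Act5C changed by -0.06 and -0.03 and passed on neither day, and Act42A changed by -0.45 ± 0.22 at day 10 (adjusted p = 0.0909, limma) and fell by 0.69 ± 0.22 at day 20 (adjusted p = 0.00886, limma). Act42A was also low in the 6 libraries with the fewest genes above 0 (median 2122 normalized counts against 4453 in the other 47). Some of these are of day 20, and their part in its fall was not tested.

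**Figure D2:**
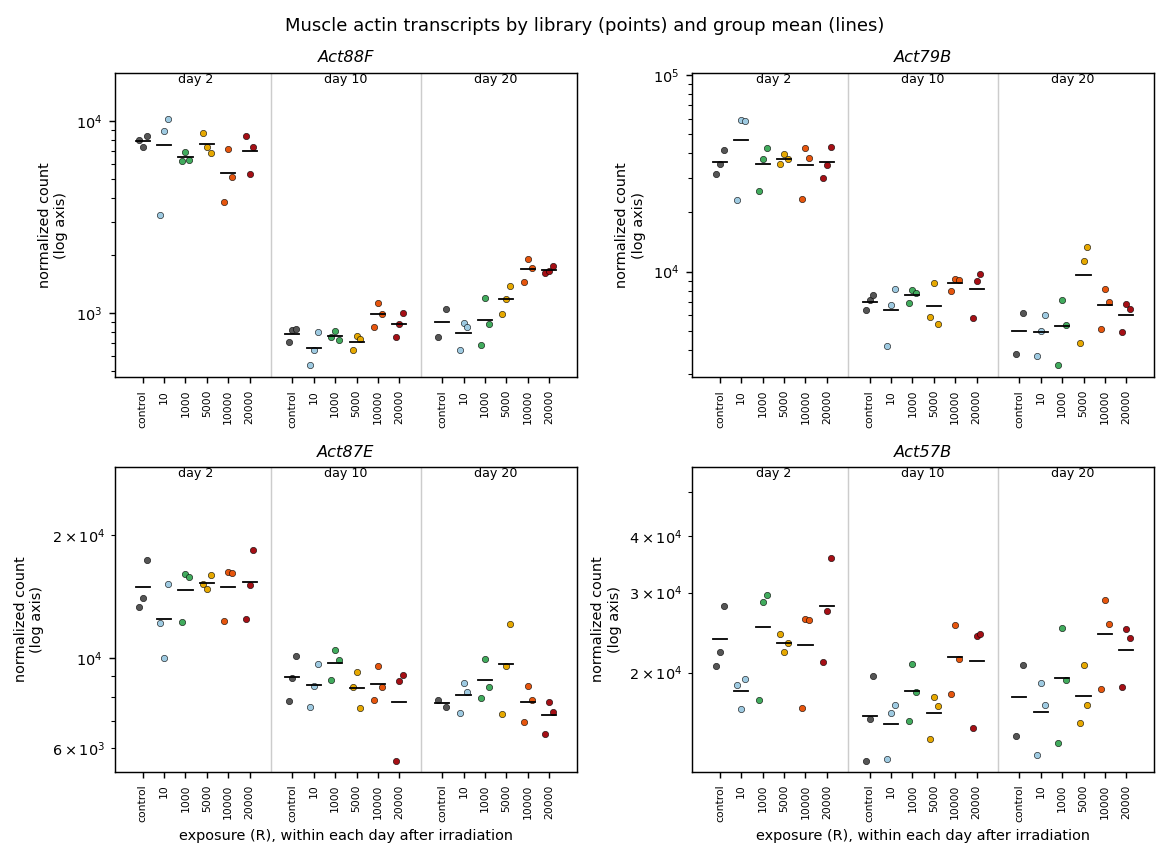
Normalized counts of the 4 muscle actins on log axes, by day after irradiation (2, 10, 20) and by exposure in R within each day; each point is a library and each line a group mean. Act88F has a median of 7234 at day 2 and 775 at day 10, and at day 20 lies higher at 10000 and 20000 R than in controls.

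Of the 8 genes of the calcium switch on the thin filament, 6 fell on both days. The troponin T gene up had 40276, 44080 and 44963 normalized counts in controls at day 2, 16257, 19430 and 17378 at day 10, and 15821 and 19531 at day 20. Its change over exposures was -1.19 ± 0.11 at day 10 and -1.18 ± 0.12 at day 20. The tropomyosin genes fell likewise, Tm1 by 0.96 ± 0.07 and 1.00 ± 0.07, and Tm2 by 1.39 ± 0.12 and 1.49 ± 0.12. All library values of Tm1 at both later days lay below those of day 2, with a range of 11635 to 20624 at day 2, 6583 to 10634 at day 10 and 5761 to 10604 at day 20.

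The troponin C family, the calcium sensors, split by isoform. TpnC4, the main isoform of indirect flight muscle, had 58.2, 37.6 and 20.1 normalized counts in controls at day 2, 2.45, 8.24 and 1.17 at day 10, and 3.53 and 0 at day 20. TpnC41C, the second isoform known from adult thoracic muscle, had 73.3, 9.16 and 13.4 in controls at day 2, 8.59, 1.83 and 1.17 at day 10, and 2.36 and 0 at day 20. Control libraries of day 2 and of the later days did not overlap for either gene, though those of TpnC41C came close. Each was at 0 in 7 of the 53 libraries.

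Over exposures TpnC4 fell by 2.80 ± 0.51 at day 10 (adjusted p = 1.57e-05) and by 3.46 ± 0.52 at day 20 (adjusted p = 3.72e-07), and TpnC41C by 3.18 ± 0.63 (adjusted p = 6.01e-05) and 3.36 ± 0.64 (adjusted p = 2.83e-05). Within controls alone neither passed, with adjusted p = 0.294 and 0.0596 for TpnC4. The isoforms of larval and other adult muscles moved less. TpnC47D fell by 0.78 ± 0.27 at day 10 (adjusted p = 0.0165) and by 0.86 ± 0.27 at day 20 (adjusted p = 0.00833), and both calls were lost without the library listed first in each group (-0.55 and -0.56).

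TpnC73F had medians of 599.7, 534 and 579 normalized counts on the 3 days, and TpnC25D of 1108, 616 and 606. Their changes were -0.23 ± 0.16 and -0.21 ± 0.16 for TpnC73F and -0.28 ± 0.33 and -0.37 ± 0.33 for TpnC25D, none past the threshold. In controls alone TpnC25D had 963, 1107 and 1205 normalized counts at day 2, 489.5, 595 and 627 at day 10, and 461 and 291 at day 20. The later days lay below day 2, but the change at day 20 (-1.57 ± 0.90) had an adjusted p of 0.308. As ratios, TpnC4 fell relative to TpnC47D by 2.01 and 2.61 (permutation adjusted p = 0.00865 and 0.00131), relative to TpnC73F by 2.57 and 3.25 (0.000875 and 0.00014) and relative to TpnC25D by 2.52 and 3.10 (0.00302 and 0.00028) at days 10 and 20. Relative to TpnC41C it differed by 0.38 and -0.11, with permutation adjusted p of 0.584 and 0.898.

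**Figure D3:**
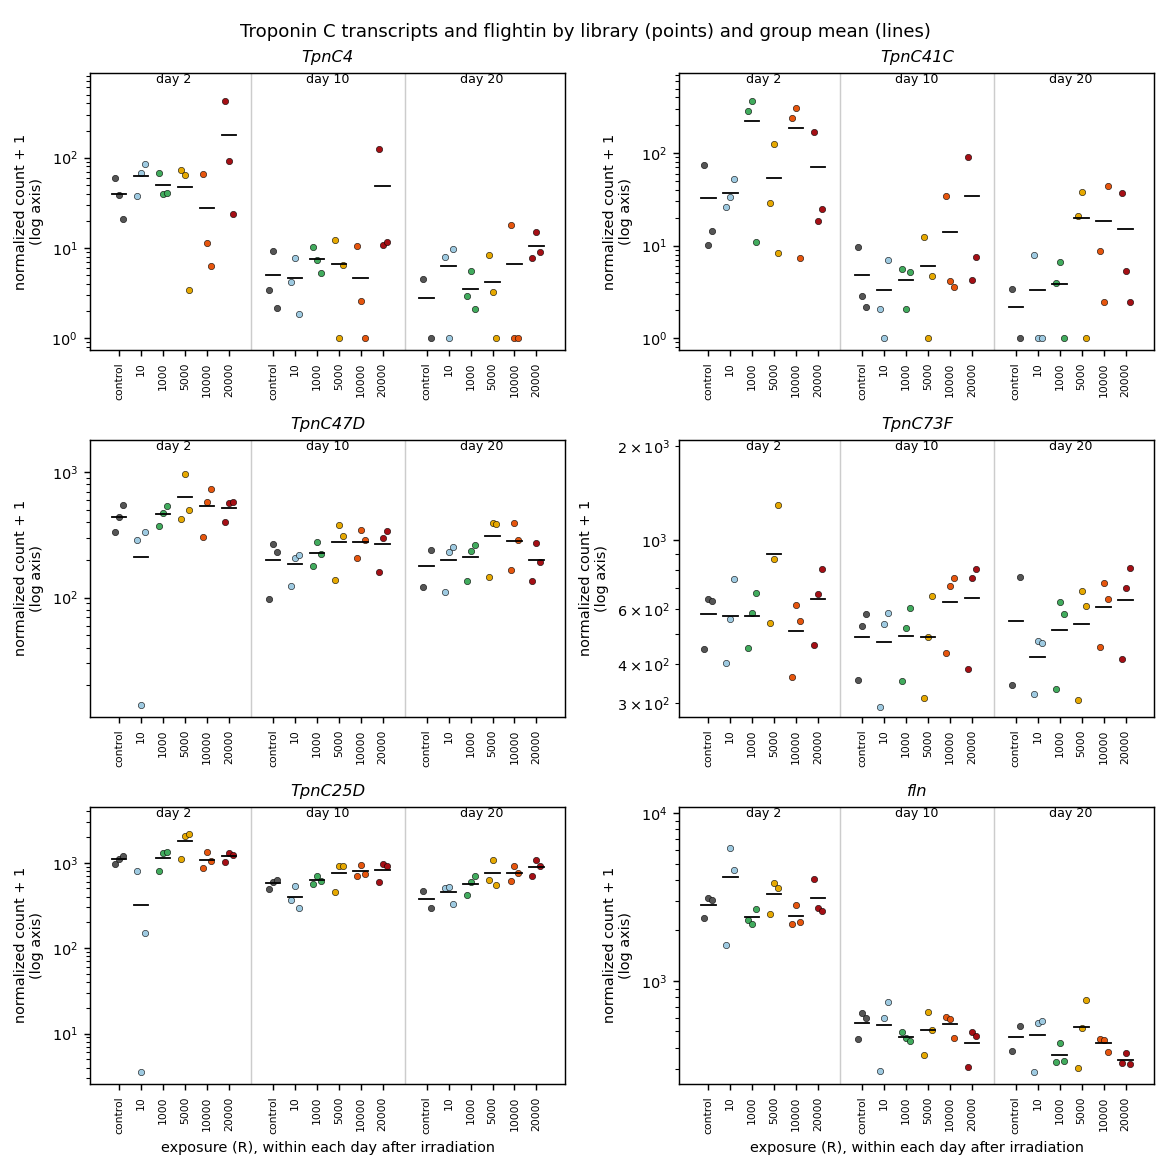
Normalized counts + 1 of the 5 troponin C genes and of fln on log axes, by day after irradiation and by exposure in R within each day; each point is a library and each line a group mean. TpnC4, TpnC41C and fln are lower at days 10 and 20 than at day 2, while TpnC73F keeps a median between 534 and 599.7 on all 3 days.

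All 5 thick filament genes fell on both days. Flightin, the myosin-binding protein of flight muscle encoded by fln, had 2380.3, 3128 and 3018 normalized counts in controls at day 2, 449, 639 and 599 at day 10, and 380.4 and 539 at day 20. Its change over exposures was -2.54 ± 0.14 at day 10 and -2.79 ± 0.14 at day 20, or 5.82 and 6.91 times lower. Mf, which encodes the thick filament protein myofilin, fell by 1.98 ± 0.12 and 2.41 ± 0.12, with 46018 to 75665 normalized counts at day 2, 7930 to 17737 at day 10 and 6045 to 23495 at day 20. The myosin light chains both fell: the essential chain Mlc1 was 2.82 and 2.81 times lower and the regulatory chain Mlc2 3.19 and 3.10 times lower at days 10 and 20. Paramyosin, the core protein of invertebrate thick filaments encoded by Prm, fell by 1.34 ± 0.11 and 1.46 ± 0.11. Libraries of the later days lay wholly below day 2 for each of these 5 genes on both days.

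All 5 genes of the Z disc and its LIM proteins fell on both days. Zasp67, which encodes a PDZ protein of the Z disc, had 539, 515 and 383 normalized counts in controls at day 2, 157, 132 and 150.4 at day 10, and 76.6 and 99.7 at day 20. Day 20 lay below day 10, and day 10 below day 2. Over exposures it fell by 1.94 ± 0.16 at day 10 and by 2.53 ± 0.16 at day 20, against 0.75 ± 0.06 and 0.84 ± 0.06 for Zasp66, a second protein of the same family. Actn, the alpha-actinin that cross-links thin filaments, fell by 1.30 ± 0.12 and 1.34 ± 0.12. The muscle LIM proteins Mlp60A and Mlp84B fell by 1.02 ± 0.17 and 1.12 ± 0.20 at day 10, and by 0.97 ± 0.17 and 1.31 ± 0.20 at day 20.

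SERCA, the pump that returns calcium to the sarcoplasmic reticulum, had the highest level per kilobase of exon at day 2 after Act79B and Mlc2, with a median of 18474 normalized counts per kilobase. It had 145190.2, 140825 and 155653 normalized counts in controls at day 2, 46031, 46180.5 and 49688 at day 10, and 25463 and 34182 at day 20. The 3 days did not overlap in controls. Over exposures the change was -1.78 ± 0.09 at day 10 (adjusted p = 5.31e-20) and -2.32 ± 0.09 at day 20 (adjusted p = 1.78e-23), or 3.44 and 4.98 times lower.

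From day 10 to day 20 few muscle genes moved further. This contrast was chosen after its values were seen, and it was run in the main model alone. Over exposures Act88F rose by 0.53 ± 0.11 at day 20 relative to day 10 (adjusted p = 0.00385, limma), while SERCA fell by 0.54 ± 0.09 (adjusted p = 0.000362) and Zasp67 by 0.59 ± 0.16 (adjusted p = 0.0414). The other 23 did not pass, and 0.970% of all genes rose and 0.858% fell. For Act88F the day 20 against day 10 change was 0.18 in controls, 0.27 at 10 R, 0.24 at 1000 R, 0.73 at 5000 R, 0.79 at 10000 R and 0.94 at 20000 R, none past the threshold within a single exposure. The difference of that change from controls, 0.76 ± 0.38 at 20000 R, did not pass either (adjusted p = 1.00).

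Of the 3 giant protein genes, bt alone passed with time, and at day 20 alone. The titin-like sls links Z discs to thick filaments, bt (projectin) is an elastic kinase along the thick filament, and Msp300 is a nesprin that anchors nuclei. Over exposures sls changed by 0.18 ± 0.27 and -0.21 ± 0.27 and Msp300 by -0.05 ± 0.15 and -0.13 ± 0.15 at days 10 and 20, none past the threshold. For bt the change was -0.30 ± 0.33 at day 10, and at day 20 it fell by 0.91 ± 0.34 (adjusted p = 0.0221). That call was lost without control day 20 b, and without the library listed first in each group (adjusted p = 0.0933).

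The levels of these 3 genes were lower in the libraries with the fewest genes detected, as were those of some shorter genes. In the 6 libraries with the fewest genes above 0, sls had 12960.3 to 39703 normalized counts (median 27684), against 31567 to 219714 (median 133706) in the other 47. For bt the values were 271 to 2304 (median 981) against 2472 to 18826 (median 8859), and for Msp300 21904 to 49060.4 (median 45201) against 29262 to 103501 (median 76937). Outside those 6, sls was also low in 1000 R day 20 b, 20000 R day 2 c, 5000 R day 2 b and c, and 5000 R day 10 b and c. Of these, 5000 R day 10 c had 13588 genes above 0, against a median of 13396 over all libraries. The 3 giant genes have the longest exon totals of the 26, at 58996, 28019 and 69810 bases for sls, bt and Msp300. Shorter genes were mixed. TpnC25D and the cytoplasmic actin Act42A were low in the 6 libraries, with medians of 292 and 2122 normalized counts against 793 and 4453 in the others. TpnC47D had medians of 246 and 289. In contrast Act88F and Mlc2 had medians of 1219 and 21082 normalized counts in the 6 libraries, against 1186 and 19900.0 in the others. Their highest values among the 6 were 10239.8 and 71724, against 8658 and 64376 in the other 47. All these medians pool the days, and Act88F and Mlc2 fell after day 2. The part of library quality in the giant genes' values was not tested.

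**Figure D4:**
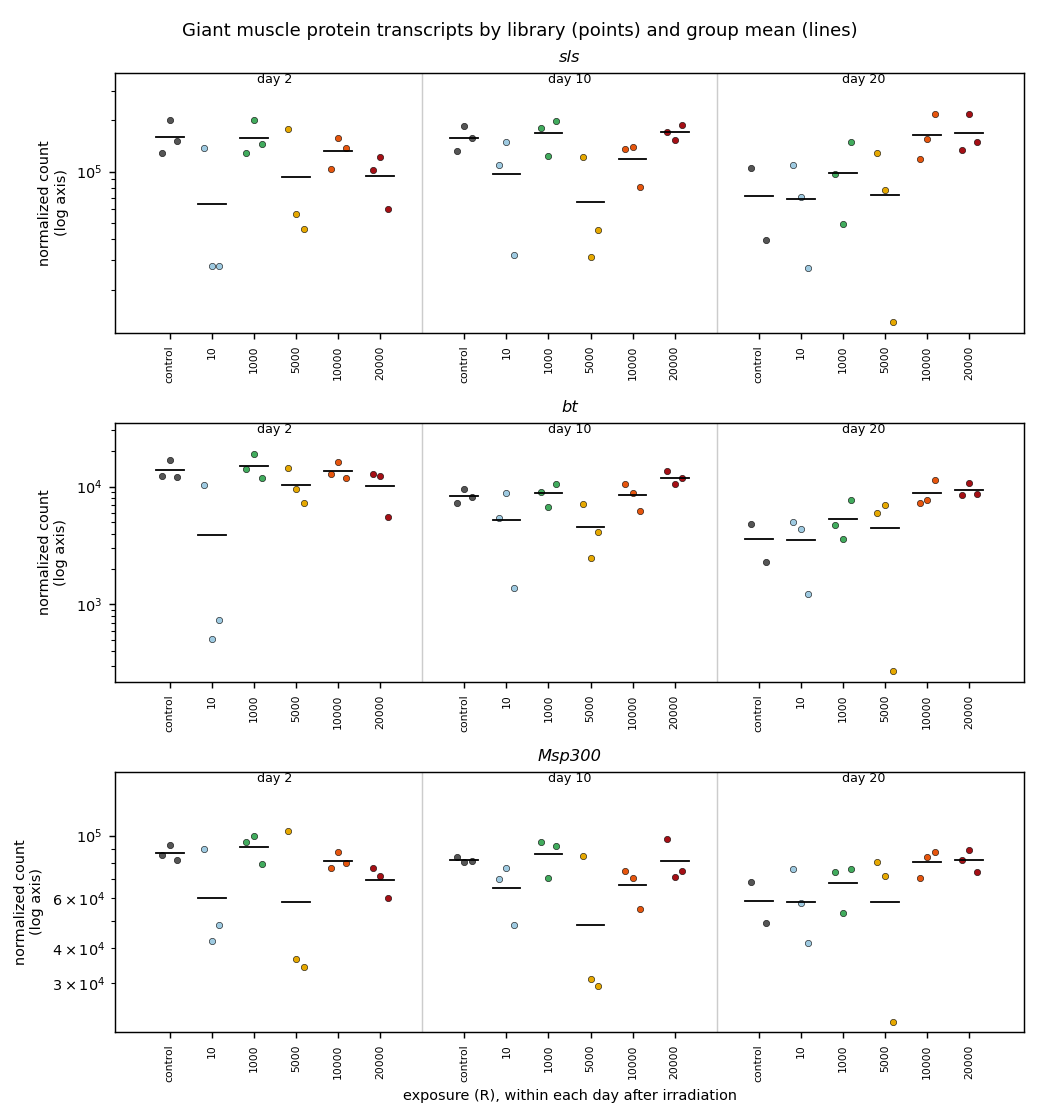
Normalized counts of sls, bt and Msp300 on log axes, by day after irradiation and by exposure in R within each day; each point is a library and each line a group mean. Single libraries, such as 10 R day 2 b and c and 5000 R day 20 c, lie far below most others of their day in sls and bt, down to 271 counts for bt.

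Changes of the muscle genes with exposure were small beside those with time, and those past the threshold at the high exposures were upward. At 20000 R, averaged over the 3 days, 3 of 26 rose and none fell, while 7.72% of all genes rose and 20.7% fell. At 10000 R, 1 rose and none fell, beside 6.42% and 21.2% of all genes. The share that rose is thus close to that of all genes. The signs leaned one way, with 22 of 26 changes above 0 at each of the 2 exposures, and a median of 0.26 at 20000 R and 0.23 at 10000 R, beside 0.08 and 0.06 over all genes. Both exposures are set against the same controls.

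The 3 genes that rose at 20000 R were Tm1 (0.33 ± 0.10, adjusted p = 0.0114), Zasp66 (0.27 ± 0.09, adjusted p = 0.0251) and TpnC4 (2.09 ± 0.74, adjusted p = 0.0303), and Zasp66 also rose at 10000 R (0.28 ± 0.09, adjusted p = 0.0190). Tm1 had 16025, 16128 and 18295 normalized counts at 20000 R against 13947, 14839 and 15769 in controls at day 2, 8763, 10183 and 10634 against 6769.9, 7446 and 7379 at day 10, and 7740.3, 9309 and 9452 against 6331 and 7438 at day 20. The 20000 R libraries of Tm1 lay above all controls of the same day on each of the 3 days. TpnC4 had 424, 92.0 and 22.5 at 20000 R against 58.2, 37.6 and 20.1 in controls at day 2, and 124, 9.79 and 10.6 against 2.45, 8.24 and 1.17 at day 10. Its groups overlapped at day 2, and libraries a of 20000 R were the highest of those days. At day 20 the 17 libraries had only 0 to 16.9 normalized counts of TpnC4 (median 3.53), with 5 at 0, control day 20 b among them. The TpnC4 call was lost without the 9 libraries that stood apart (1.34, adjusted p = 0.203) and without any of 6 single libraries, among them 20000 R day 2 a and day 10 a. The Zasp66 call at 20000 R was lost without control day 10 a, control day 20 b or 20000 R day 10 c.

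The count at the high exposures depended on the setting. Leaving out the 9 libraries that stood apart kept library a as the only control of day 20, so changes are given without counts. The median change of the muscle genes was then 0.41 at 20000 R and 0.32 at 10000 R, beside 0.02 and 0.03 over all genes. Changes at 20000 R included Actn (0.53), Mlc2 (0.51), Prm (0.50), Act57B (0.49), Act88F (0.41), Tm2 (0.40), Tm1 (0.40), Zasp66 (0.31), TpnC25D (0.59) and Mlp60A (0.63). Those below 0 were fln (-0.09), Msp300 (-0.08), Zasp67 (-0.07), Act87E (-0.03) and sls (-0.01). With a term for the library listed first in each group, 8 rose at 20000 R and 5 at 10000 R, beside 1250 and 1078 of all genes. With quantile normalization 7 rose at 20000 R and 4 at 10000 R, beside 4085 and 3940 of the 12475 genes, so that the share of the muscle genes was below that of all genes. On that scale the median of all genes moved to 0.27 and 0.26, level with the medians of the muscle genes (0.27 and 0.24).

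At lower exposures little was detected. At 5000 R none of the 26 passed over the 3 days (6 at an unadjusted p under 0.05, 1 by DESeq2 and none by edgeR), where 4.55% of all genes changed. With a term for the library listed first in each group, 2 were higher and 1 lower there, beside 844 of all genes called. Without 5000 R day 20 a, 4 passed. At 1000 R none passed by limma, edgeR or DESeq2 and none at an unadjusted p under 0.05, where 0.00% of all genes changed. At 10 R bt fell (-1.44 ± 0.49, adjusted p = 0.0459), where 9.81% of all genes fell, and the call was lost by edgeR and by DESeq2. Without the 9 libraries that stood apart the change was -0.12, with library a alone left of 10 R at day 2.

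**Figure D5:**
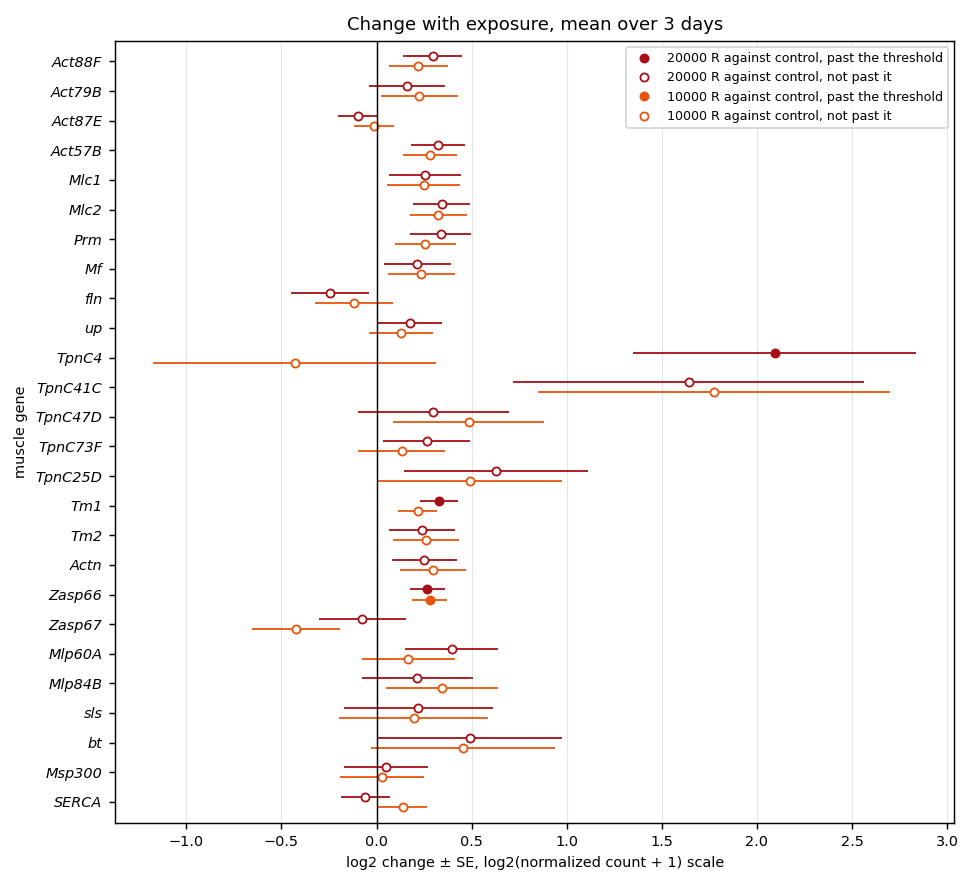
Change of each of the 26 muscle genes at 20000 R (dark red) and 10000 R (orange) against control, on the log2(normalized count + 1) scale, as the mean over 3 days with bars of ±1 SE; filled points passed an adjusted p of 0.05 in limma. Most points lie a little above 0, and TpnC4, Tm1 and Zasp66 are filled at 20000 R, Zasp66 alone at 10000 R.

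On single days the flight muscle actin passed against controls at day 20 for 10000 and 20000 R, and at neither day 2 nor day 10. Its change between day 10 and day 20 at 20000 R did not itself differ from that of controls past the threshold, as given above. At day 20 Act88F had 748 and 1047 normalized counts in controls, 640.3, 882 and 846 at 10 R, 678, 1192 and 879 at 1000 R, 986, 1186 and 1390.3 at 5000 R, 1457, 1924 and 1723 at 10000 R, and 1611, 1659 and 1755 at 20000 R. The libraries of 10000 and 20000 R lay above all others of that day. Act88F rose by 0.92 ± 0.28 at 20000 R (adjusted p = 0.0148) and by 0.93 ± 0.28 at 10000 R (adjusted p = 0.0135), where 5.60% and 4.44% of all genes rose. Without control day 20 a, which left 1 control library at that day assumed to vary like the other groups, the changes were 0.68 (adjusted p = 0.174) and 0.69 (adjusted p = 0.171). The 10000 R call was also lost without 10000 R day 20 b. At day 2 the same gene had 8403, 5287 and 7352 at 20000 R and 3795, 7158 and 5149.5 at 10000 R against 7983, 7309 and 8357 in controls, which overlapped at 20000 R and did not at 10000 R (-0.60 ± 0.25, adjusted p = 1.00).

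Zasp66 rose at day 20 at 20000 R (0.53 ± 0.17, adjusted p = 0.0201), with 7329 and 7199 normalized counts in controls, 7506, 13072 and 10506 at 5000 R, 9611, 10345 and 9909 at 10000 R, and 10525, 10349 and 10618 at 20000 R. All libraries of these 3 exposures exceeded both controls. The call was lost without either control library of that day and with edgeR (adjusted p = 0.0579). At day 2 the change of Zasp66 was 0.00 ± 0.15 at 20000 R. Whether the response to exposure differed between days was tested with an F test over the 5 exposures: Act88F (adjusted p = 0.0313) and Zasp66 (adjusted p = 0.0225) passed, 2 of 26, beside 17.9% of all genes. An F test for any difference among exposures passed for 11 of 26, beside 66.2% of all genes.

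Of the other single days, 10 R at day 2 gave 4 falls, TpnC25D (-3.85 ± 0.80), bt (-3.11 ± 0.81), TpnC47D (-1.97 ± 0.66) and sls (-1.75 ± 0.65), where 47.5% of all genes changed and 3996 of the 12475 fell. By edgeR TpnC25D alone of the 4 passed, 1 other muscle gene was higher, and bt, TpnC47D and sls had adjusted p of 0.0548, 0.191 and 0.103. In that group bt had 10385, 507 and 742 normalized counts against 12207, 16978 and 12087 in controls, and the lower values are the 2 libraries with the fewest genes detected of all 53. Without the 9 libraries the 4 changes were -0.46, -0.39, -0.57 and -0.21, but library a alone was then left of 10 R at day 2. Without the library listed first in each group, which leaves those 2 libraries for 10 R at day 2, 11 muscle genes were higher and 7 lower, beside 2784 and 4999 of all genes. With a term for that library 2 were higher and 6 lower. At day 10 none passed at 20000 R (2 at an unadjusted p under 0.05, where 21.4% of all genes changed) or 10000 R (1, where 22.1% changed), by edgeR as well, while DESeq2 called 2 and 0. On the remaining single days no muscle gene passed by limma, edgeR or DESeq2. The shares of all genes that changed there were 0.00% and 0.0160% at 10 R on days 10 and 20, 0.00%, 0.00% and 0.0160% at 1000 R and 0.449%, 0.0160% and 0.473% at 5000 R on days 2, 10 and 20, 0.0962% at 10000 R and 0.160% at 20000 R on day 2. At an unadjusted p under 0.05 there were 1, 4 and 3 muscle genes at 5000 R, 1 at 10000 R and 0 in the others. No ratio of a flight muscle isoform to another isoform passed for 20000 or 10000 R (exact stratified permutation over 4000 relabellings). The nearest, TpnC4 to TpnC41C at 10000 R, was -2.20 with an adjusted p of 0.0653.

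Other tissues gave a scale for these shifts. At 20000 R 13 of 14 testis genes fell with a median of -4.28, and at 10000 R all 14 fell with a median of -3.80, while the muscle genes shifted by a median of 0.26 and 0.23. The testis genes summed to 1965 to 3869 normalized counts in 20000 R libraries of days 10 and 20, against 68148 to 81346 in controls. The part of this loss in the small upward shift of muscle genes was not tested. With time, 8 of 9 genes of the sarcosome and mitochondrion fell at day 10 and 9 of 9 at day 20 (medians -0.99 and -1.09), and with exposure none of the 9 passed at either 20000 or 10000 R. In controls 4 of these 9 fell on each day. Among markers of other tissues, 4 of 5 fat body genes rose at day 10 and 3 at day 20, 6 and 5 of 10 midgut genes rose and 4 and 3 of 6 neuron genes fell. On these days 20.3% and 20.6% of all genes tested rose and 25.4% and 30.3% fell. A loss of muscle transcripts relative to those of other tissues and a gain of the others cannot be told apart in shares of one total.

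A wider list of 59 other muscle genes stood closer to the background with time. Of these, 21 fell and 4 rose at day 10, and 23 fell and 6 rose at day 20. Of all genes tested, 3165 fell and 2528 rose at day 10, and 3781 fell and 2564 rose at day 20, of 12475. The medians of the list were -0.12 and -0.08, beside 0.04 and -0.04 over all genes. Among the 10 genes of energy supply and chaperones 7 fell on each day. Lasp, an actin-binding LIM protein of the thin filament, fell by 1.19 ± 0.06 at day 10 and 1.26 ± 0.07 at day 20, and tmod, the tropomodulin that caps thin filament ends, by 0.81 ± 0.06 and 1.03 ± 0.06. The splicing factor bru1, which directs flight muscle isoforms and is also known from the germ line, fell by 1.41 ± 0.10 and 1.65 ± 0.10, and phosphofructokinase (Pfk) by 0.98 ± 0.07 and 1.02 ± 0.07. These are means over all exposures, irradiated groups included, and values in controls alone are not given. The response to exposure differed between days for bru1 and Lasp (F test adjusted p = 4.41e-11 and 3.36e-12). It did not pass for tmod and Pfk (0.531 and 0.155). Both bru1 and Lasp also fell at the high exposures, as given below. The part of the irradiated groups in their fall with time was not tested. Among the 20 genes of the sarcomere and attachment sites 4 fell on each day, and 2 and 3 rose. Among the 11 of calcium and excitation 4 fell and 1 rose on each day. The differences between these groups were not tested.

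With exposure, 3 of the 59 rose and 7 fell at each of 20000 and 10000 R. These counts are no larger a share than that of all genes, of which 7.72% rose and 20.7% fell at 20000 R and 6.42% and 21.2% at 10000 R. The strongest were falls: bru1 by 2.12 ± 0.14 and 1.79 ± 0.14, Lasp by 1.38 ± 0.09 and 1.34 ± 0.09, and Mlf by 0.80 ± 0.11 and 0.74 ± 0.11 at 20000 and 10000 R. The mesoderm factor twi fell by 1.61 ± 0.23 at 20000 R, and park, a ubiquitin ligase of mitochondrial quality control, by 0.76 ± 0.12 at 10000 R. These falls stand beside the drop of the testis genes at the same exposures, and the part of that drop in them was not tested. Of the cytoplasmic actins, Act42A fell by 0.96 ± 0.32 at 20000 R (adjusted p = 0.0202) and by 0.86 ± 0.32 at 10000 R (adjusted p = 0.0397), and Act5C passed at neither.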

How the data were processed

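Per the submitters' processing notes, the authors aligned reads with TopHat2 2.0 to genome build dm3 and used DESeq; the sources used here do not give the counting program, its strand setting or the annotation. The deposited signal is a normalized count per gene and library. Within a tolerance of 0.1, 100% of values were whole multiples of one step per library, so whole reads were recovered and every library's depth is known. Symbols came from a reference annotation of another build (94.3% of identifiers matched, 875 did not), so no coordinates are given, and exon lengths are from that annotation.

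A single model in limma 3.58.1 (R 4.3.3, moderated with a mean trend) on log2(normalized count + 1) gave each of 18 groups its own mean, for the 12475 genes averaging 10 or more normalized counts. This scale understates the changes of low genes such as TpnC4. Contrasts were each exposure against control and days 10 and 20 against day 2. P-values were adjusted by Benjamini-Hochberg over all genes tested per contrast. The scripts were tested on simulated data. The alternatives were a pseudocount of 5, no filter, quantile normalization, leaving out 9 libraries or each single library, only the libraries of a day, and edgeR 4.0.16 (quasi-likelihood, TMM) and DESeq2 1.42.0 on the recovered reads; edgeR called 5864 genes at day 10 and 6725 at day 20 over exposures, beside 5693 and 6345 by limma. Leaving out, keeping only or adding a term for the library listed first in each group, and the contrast of day 20 with day 10, were chosen after seeing the data. The ratio of fln to Mhc could not be formed. Members, gene lists, rules and the 9 libraries were chosen with earlier results of these data known. Named genes outside the 26 are the cytoplasmic actins and the 4 other muscle genes with the smallest p per main contrast.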

Additional observations from a re-analysis of the deposited data

Results flagged for a closer look

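The response to exposure differed between days for 2 of the 26 muscle genes by an F test on the interaction of exposure and day in limma. For Act88F the adjusted p was 0.0313: at 20000 R the change against control was -0.19 at day 2, 0.16 at day 10 and 0.92 at day 20, and at 10000 R it was -0.60, 0.33 and 0.93. For Zasp66 the adjusted p was 0.02251: the changes were 0.00, 0.27 and 0.53 at 20000 R and 0.03, 0.36 and 0.45 at 10000 R. The test covers all 5 exposures, including 10 R at day 2, where Zasp66 was at 0.32 and 2 of 3 libraries had few genes detected.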

How the results depend on the processing

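No paired analysis was possible because the table's columns carry no replicate numbers. The order of a group's columns is no such number, but a term for the library listed first was added to the model after seeing the data, and its values are below. Single-gene calls with exposure, and with time against day 2 over exposures or in controls, were counted again. This was done under each setting that applied and for each library left out. Calls with time within an irradiated exposure, and of day 20 against day 10, were not run again. Of these repeated checks, 707 kept direction and threshold and 28 kept direction only under the other settings. When a single library was left out, 4447 and 58 did so. None reversed. The counts of falls with time over exposures and in controls stayed within 1.5 times of those reported in every setting run. Counts of muscle genes past the threshold that moved further are given by setting. A pseudocount of 5 gave 2 at 10 R over days, and no filter gave 0. Quantile normalization gave 1 at 10000 R and 2 at 20000 R at day 10 (beside 5328 and 5150 of all genes), and 3 and 4 at day 20 (3685 and 4064). Over days it gave 2, 4 and 7 at 10, 10000 and 20000 R (1426, 6225 and 6428). Without the 9 libraries there were 1 at 5000 R, 1 at 10000 R and 4 at 20000 R at day 10 (beside 22, 3946 and 3898 of all genes). Counts of that setting for 10 R day 2, for day 20 and over days are not listed here. It left 1 library of 10 R at day 2 and 1 control library at day 20. With the libraries of a single day there were 1 at 20000 R day 10 and 2 at 10000 R day 20 (beside 2948 and 2400 of all genes). Without the library listed first in each group there were 18 at 10 R day 2, 11 higher and 7 lower, where the reported 4 were all lower. Of all 12475 genes, 7783 were called there. There were 4 at 5000 R day 2 (beside 1136 of all genes), and 2, 3 and 6 at 5000, 10000 and 20000 R at day 10 (359, 2702 and 2711). That setting left 1 control library at day 20, so its counts for day 20, over days and for the F tests are not listed. They exceeded those reported for the F tests, and over days at 10, 5000, 10000 and 20000 R. They did so too at day 20 for 5000 and 10000 R. Over days, the genes called at 10, 5000 and 20000 R included both rises and falls. The median changes of that setting over days at 10, 5000, 10000 and 20000 R were 0.10, 0.15, 0.24 and 0.27, beside -0.13, 0.03, 0.05 and 0.05 over all genes. With only the library listed first, a model with additive terms for exposure and day gave 0 at 10, 10000 and 20000 R over days (0, 0 and 151). With a term for that library there were 8 at 10 R and 1 at 5000 R at day 2 (beside 6611 and 125 of all genes), 4 and 4 at 10000 and 20000 R at day 10 (3092 and 2985), 3 at 10000 R day 20 (2938), and 2, 3, 5 and 8 at 10, 5000, 10000 and 20000 R over days (2416, 844, 3835 and 3968). By edgeR there were 2 at 10 R day 2 (1 of them higher), 1 at 20000 R day 20 and 0 at 10 R over days (beside 3425, 2746 and 360 of all genes). It called 7 for any exposure and 1 for a response that differs between days (7072 and 2102). By DESeq2 there were 2 at 10 R day 2, 2 at 10000 R day 20 and 2 at 20000 R day 10 (beside 3627, 2861 and 2832 of all genes). Over days it called 0, 1 and 2 at 10, 5000 and 10000 R (661, 725 and 3811).

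When single libraries were left out, falls numbered 21 to 22 at day 10 and 21 to 23 at day 20 over exposures, and 14 to 15 and 15 to 16 in controls. The counts were 1 to 12 at 10 R day 2 (1 without library b, 12 without library a), 0 to 1, 0 to 2 and 0 to 3 at 5000 R on days 2, 10 and 20, 0 to 1 at day 10 and 0 to 2 at day 20 at 10000 R, and 0 to 1 and 0 to 3 at 20000 R. Over days they were 0 to 4 at 10 R, 0 to 4 at 5000 R, 1 to 2 at 10000 R and 2 to 5 at 20000 R; for any exposure 9 to 13, for a response that differs between days 1 to 4, and for the isoform ratios 11 to 14. Except for the settings' own loss of samples or genes, the cause was not tested. The 7 libraries in which TpnC4 was at 0 held 24.4 to 35.9 M recovered reads, all above the median of 23.3 M, and the 7 at 0 for TpnC41C held 20.9 to 30.1 M. With 2 controls at day 20, calls of that day lean on the spread pooled over groups.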

Other observations

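Markers of male tissues other than muscle gave a mixed picture with time over the 6 exposures. Of 9 accessory gland genes, which encode seminal fluid proteins, 2 fell at day 10 and 6 at day 20. Of 10 photoreceptor genes, 1 rose and 3 fell at day 10, and 3 rose and 2 fell at day 20. The shares of all genes tested were 20.3% rising and 25.4% falling at day 10, and 20.6% and 30.3% at day 20. Of 14 testis genes, 11 fell at day 10 and 13 at day 20 over exposures, where the irradiated groups are included, and none fell in controls alone by limma (1 and 4 at an unadjusted p under 0.05), while 15 of 26 muscle genes fell in controls on each day.

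The fall of the muscle genes with time was present on either side of the split by column order, which was chosen after seeing the data. Without the library listed first in each group, 20 of 26 fell at day 10 (median -1.27), beside 3168 of the 12475 genes tested. At day 20 the median was -1.24, given without a count, since controls had 1 library besides the library listed first. With only that library, 23 fell at day 10 and 24 at day 20 (medians -1.25 and -1.42), beside 1118 and 3422 of all genes, in a model with additive terms for exposure and day. In the full model with a term for that library, 22 and 23 fell, beside 3390 and 3949 of all genes.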
